A study of Mus musculus with 10 samples.

Results

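Collagens are the main fibrous proteins of the aortic wall, and the genes examined here encode their chains. All gene names in the array files that have the form of a collagen chain (Col, a type number, a, and a chain number) were taken, which gave 41 names with 63 probes among 35527 names with 55681 probes. Gene expression had been profiled in infrarenal aorta from male C57BL/6J mice, 10 weeks old at surgery, 7 days after the operation. In the PPE group the segment was infused for 5 min at 100 mmHg with saline that held type I porcine pancreatic elastase at 1.5 U/mL, and in the sham group with saline alone. Elastase digests the elastic fibres of the wall, and the aorta then widens into an abdominal aortic aneurysm (AAA). All mice had the aorta tied off, opened and repaired, so surgery itself is common to both groups, and no unoperated aorta is among the 10 arrays. Each group held 5 arrays with 1 mouse each. The model is an acute enzyme injury of a young aorta.

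The red dye (Cy5) marked aortic RNA, and the green dye (Cy3) marked 1 common universal mouse reference RNA. A value is therefore the log2 ratio of aorta over reference for a probe, and only differences between arrays for the same probe, or for a pair of probes on the same array, were compared. Between 37.6% and 65.8% of spots had a red signal well above background, with the smallest share in each group on sham 5 and PPE 5. A chain was tested if a probe of it had red signal well above background on 5 or more arrays. This held for 36 of the 41 chains, and 24 of them were above it on all 10. Whole aortic tissue was measured, so fewer cells of a type and less RNA per cell cannot be told apart.

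A collagen molecule is built of 3 chains wound around each other, and every collagen type has its own set of chains. Fibrillar collagens (types I, II, III, V, XI, XXIV and XXVII) form or regulate the banded fibrils that give the vessel wall its tensile strength. Basement membrane collagens are type IV, which makes the sheet-like network around each smooth muscle cell and under the endothelium, and types XV and XVIII, which lie at the border of that sheet. Type VI forms beaded microfilaments and type VIII a short-chain network made by vascular cells. FACIT collagens sit on the surface of fibrils, and transmembrane collagens are anchored in the cell membrane.

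In PPE aorta most fibrillar chains had a higher ratio of aorta over reference, and most basement membrane chains had a lower one. Of the 36 chains tested, limma called 16 higher and 5 lower in PPE, at a Benjamini-Hochberg adjusted p under 0.01 over all names tested, and 15 were not called. Over all 22520 names tested, 13.8% were called higher and 9.96% lower. The groups did not overlap for 19 of the 36 chains, against 25.5% of all names tested. The median log2 fold change of PPE over sham was 0.52 over the collagen chains and 0.02 over all names tested. The classes went in opposite directions and are described separately below.

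By class, 9 of 11 fibrillar chains were higher and 0 were lower, with a median log2 fold change of 1.86. Of these 9, Col24a1, Col11a1 and Col2a1 were above background on all 5 PPE arrays but on only 0, 2 and 1 sham arrays. Among fibrillar chains above background on all 10 arrays, 6 of 8 were higher, with a median of 1.66. Of 8 basement membrane chains, 5 were lower and 0 higher, with a median of -1.64. In types VI and VIII, 3 of 6 chains were higher (median 0.59), and among FACIT chains 3 of the 7 tested (median 0.21). The only transmembrane chain tested, Col23a1, had a log2 fold change of 0.04. Of the 3 chains outside these classes 1 was higher (median 1.01). Among the 24 chains above background on all 10 arrays, 10 were higher and 4 lower. Over all 15261 names that met this condition, 2424 were higher and 2072 lower. The calls for the main fibril chains Col1a1, Col1a2 and Col3a1 rested on the reference channel, as described with them. The scaling of the arrays also mattered. When each array was centred on its median in place of loess, the median of all names moved by 0.39 on the log2 scale. There 4 collagen chains were called higher and 0 lower, against 408 and 8 of all 22520 names. All 16 higher chains kept a positive log2 fold change there, and all 5 lower chains a negative one. Relative to the median of all names, the fibrillar median was 1.84 with loess and 1.85 with median centring, and the basement membrane median was -1.66 and -1.25.

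**Figure D1:**
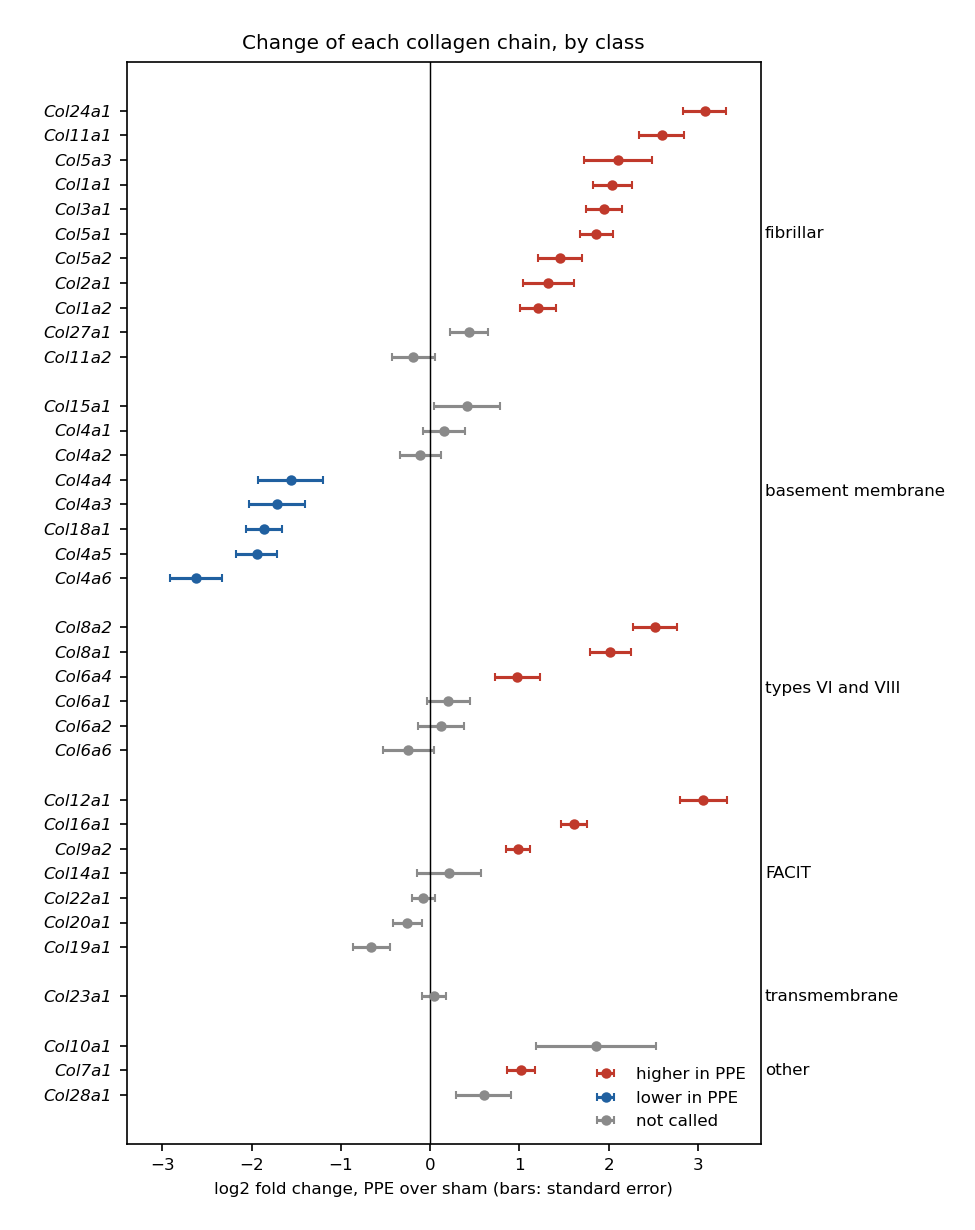
Log2 fold change of PPE over sham for the 36 collagen chains tested (points, from limma, with bars of 1 standard error), grouped by class and coloured by the call at an adjusted p under 0.01. All 9 fibrillar calls lie to the right of 0 and all 5 basement membrane calls to the left.

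Several chains are encoded side by side in the genome. In the RefSeq table (assembly GRCm38.p6, used for names and order), all 41 symbols were found, and 6 pairs of neighbouring protein-coding genes were both collagen chains. Both members were higher in 1 pair (Col3a1 and Col5a2) and both lower in 2 pairs (Col4a3 and Col4a4, Col4a5 and Col4a6). Both members were not called in 2 pairs (Col4a1 and Col4a2, Col6a1 and Col6a2), and in the last pair Col19a1 was not called and Col9a1 was not tested. The type IV genes lie head to head, on opposite strands. The annotated starts of Col4a1 and Col4a2 are 21 bases apart, and those of Col4a5 and Col4a6 are 1343 bases apart. The 250 bases before the annotated start are shown for a fibrillar chain that was above background only on PPE arrays (Col24a1), for 2 chains of the main fibrils (Col3a1 and Col1a2) and for a head-to-head pair that was lower (Col4a5 and Col4a6). Each is written 5′ to 3′ on the strand of its gene, from RefSeq on GRCm38.p6, and capitals mark the letters CCAAT, or ATTGG for the same letters on the other strand.
Col24a1, chr3:145292222-145292471, plus strand: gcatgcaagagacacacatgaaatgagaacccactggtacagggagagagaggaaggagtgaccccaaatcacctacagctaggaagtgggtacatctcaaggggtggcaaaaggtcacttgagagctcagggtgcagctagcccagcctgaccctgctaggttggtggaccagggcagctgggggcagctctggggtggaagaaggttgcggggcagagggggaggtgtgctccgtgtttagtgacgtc
Col3a1, chr1:45311288-45311537, plus strand: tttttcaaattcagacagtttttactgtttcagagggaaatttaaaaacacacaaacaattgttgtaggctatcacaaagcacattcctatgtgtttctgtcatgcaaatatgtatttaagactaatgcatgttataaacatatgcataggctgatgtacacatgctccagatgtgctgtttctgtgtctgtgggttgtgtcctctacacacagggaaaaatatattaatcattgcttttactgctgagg
Col1a2, chr6:4505368-4505617, plus strand: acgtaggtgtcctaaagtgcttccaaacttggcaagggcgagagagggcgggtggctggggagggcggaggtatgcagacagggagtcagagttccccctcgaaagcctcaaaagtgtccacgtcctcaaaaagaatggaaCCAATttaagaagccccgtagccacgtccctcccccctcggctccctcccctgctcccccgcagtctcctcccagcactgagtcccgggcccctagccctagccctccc
Col4a5, chrX:141475169-141475418, plus strand: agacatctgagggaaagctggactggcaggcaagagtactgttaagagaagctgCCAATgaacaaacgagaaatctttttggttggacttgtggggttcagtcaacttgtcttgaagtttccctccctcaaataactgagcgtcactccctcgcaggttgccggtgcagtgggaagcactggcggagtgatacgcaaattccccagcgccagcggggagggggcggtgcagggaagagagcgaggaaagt
Col4a6, chrX:141474077-141474326, minus strand: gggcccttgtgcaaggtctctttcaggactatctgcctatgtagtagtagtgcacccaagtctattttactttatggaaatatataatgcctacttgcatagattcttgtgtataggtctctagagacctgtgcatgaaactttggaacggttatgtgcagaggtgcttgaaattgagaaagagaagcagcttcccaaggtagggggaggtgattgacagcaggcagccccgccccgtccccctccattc

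The CCAAT letters began 109 bases before the start in Col1a2 and 196 bases before it in Col4a5, and the other 3 stretches held none. The Col3a1 stretch held TATAAA, and Col1a2, Col4a5 and Col4a6 each held at least 1 GC box, GGGCGG or CCGCCC. The table gives windows of 300 bases, which run 50 bases past the start, for 33 of the 41 chains and for 16 of the 21 called ones. Among these, CCAAT or ATTGG was present for 6 of 12 higher chains, 2 of 4 lower chains and 2 of 13 chains not called, and in 37.4% of all 32851 windows in the table. A GC box was present for 10 of 12 higher, 3 of 4 lower and 7 of 13 other chains, and in 35.7% of all windows. TATAAA or TTTATA was present for 1, 0 and 2 chains, and in 13.6% of all windows. The CArG box, the element of smooth muscle genes, was matched for 1 higher chain (Col6a4) and 0 of the others, and in 1.63% of all windows. These are matches of letters on either strand, and different chains have different numbers of windows.

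The fibrillar chains were examined first. Col24a1 encodes the chain of type XXIV, a minor fibrillar collagen best known from developing bone. Its log2 ratio on sham arrays 1 to 5 was -0.40, -0.08, -0.02, -0.04 and 0.03, and on PPE arrays 1 to 5 it was 3.85, 2.55, 2.76, 3.25 and 2.44. All PPE arrays lay far above all sham arrays. The Col24a1 probe (chromosome 3, 145214473 to 145214532, mm9) was well above background on 0 of 5 sham arrays and on 5 of 5 PPE arrays. Since it passed the filter through the PPE arrays alone, it had to differ, and its fold is a bound. In the red channel, normalized between arrays, it was at least 7.14-fold higher in PPE (log2 fold change of the ratios 3.07, standard error 0.24, limma adjusted p 3.42e-06).

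Col11a1, a chain of type XI, which sits inside fibrils and limits their width, followed with a log2 fold change of 2.59 (standard error 0.25, limma adjusted p 1.46e-05). Its log2 ratios were -0.17, -0.07, 0.13, -0.06 and 0.12 on the sham arrays, and 2.53, 2.79, 3.49, 1.82 and 2.28 on the PPE arrays. The groups were far apart, and the probe was well above background on 2 sham arrays and on all 5 PPE arrays. Col5a3, a chain of type V, which starts fibril assembly, had log2 ratios of 1.31, 0.08, 1.24, 0.67 and -0.11 in sham and of 3.65, 2.68, 2.71, 3.08 and 1.61 in PPE. The lowest PPE array, PPE 5, was above the highest sham array. The log2 fold change of Col5a3 was 2.10 (standard error 0.38, limma adjusted p 0.00119), with the widest spread among the 9 fibrillar calls.

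The chains of types I and III make up most fibrils of the aortic wall. For Col1a1, the log2 ratio was 2.32, 1.999, 1.89, 1.82 and 1.89 on the sham arrays and 4.40, 4.48, 4.27, 3.53 and 3.43 on the PPE arrays. PPE 4 and PPE 5 were the lowest of their group, yet more than 1 log2 unit above every sham array. The ratio of Col1a1 was 4.11-fold higher in PPE (log2 fold change 2.04, standard error 0.22, limma adjusted p 3.06e-05). For Col3a1, the log2 ratio was 2.88, 2.74, 2.71, 3.19 and 2.72 in sham, and 5.16, 5.31, 4.70, 4.22 and 4.59 in PPE. These groups were also separate, with a fold of 3.86 (log2 fold change 1.95, standard error 0.20, limma adjusted p 2.13e-05).

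For Col1a1, Col3a1 and Col1a2, most of the difference in the ratio lay in the green channel, which held the same reference RNA on every array. With the channels taken apart after normalization between arrays, the red (aortic) signal of Col1a1 differed by 0.38 on the log2 scale (limma adjusted p 0.281), that of Col3a1 by 0.53 (0.0916) and that of Col1a2 by 0.05 (0.884). None of these passed the test. The green signal fell by 1.65 for Col1a1 (limma adjusted p 0.00744), and differed by -1.42 for Col3a1 (0.0107) and by -1.16 for Col1a2 (0.0414). The green log2 signal of Col1a1 was 13.56 to 14.27 on sham and 11.66 to 13.22 on PPE arrays, and in the other chains of the trio the green groups did not overlap either. No spot of the 36 chains was marked as saturated in either channel. Over all names tested, the green signal passed the test for 0.382% and differed by more than 1 for 0.613%. The cause of the green difference was not tested, and the folds of these chains describe the ratio and not the aortic signal alone.

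In the red channel alone, limma called 13 chains higher and 5 lower, with 6 of the 9 fibrillar calls still past the threshold. The ratio and the red signal differed by more than 1.5-fold for 6 of the 36 chains. The others of these were Col4a4 (-1.56 by the ratio and -2.45 in red, with green at -0.89, limma adjusted p 0.000445), Col14a1 (0.21 and 1.18) and Col10a1 (1.86 and 0.91). For the remaining fibrillar calls both measures were close, as for Col24a1 (3.07 and 2.85), Col11a1 (2.59 and 2.49) and Col5a1 (1.86 and 1.73). This alternative was chosen after seeing the data.

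**Figure D2:**
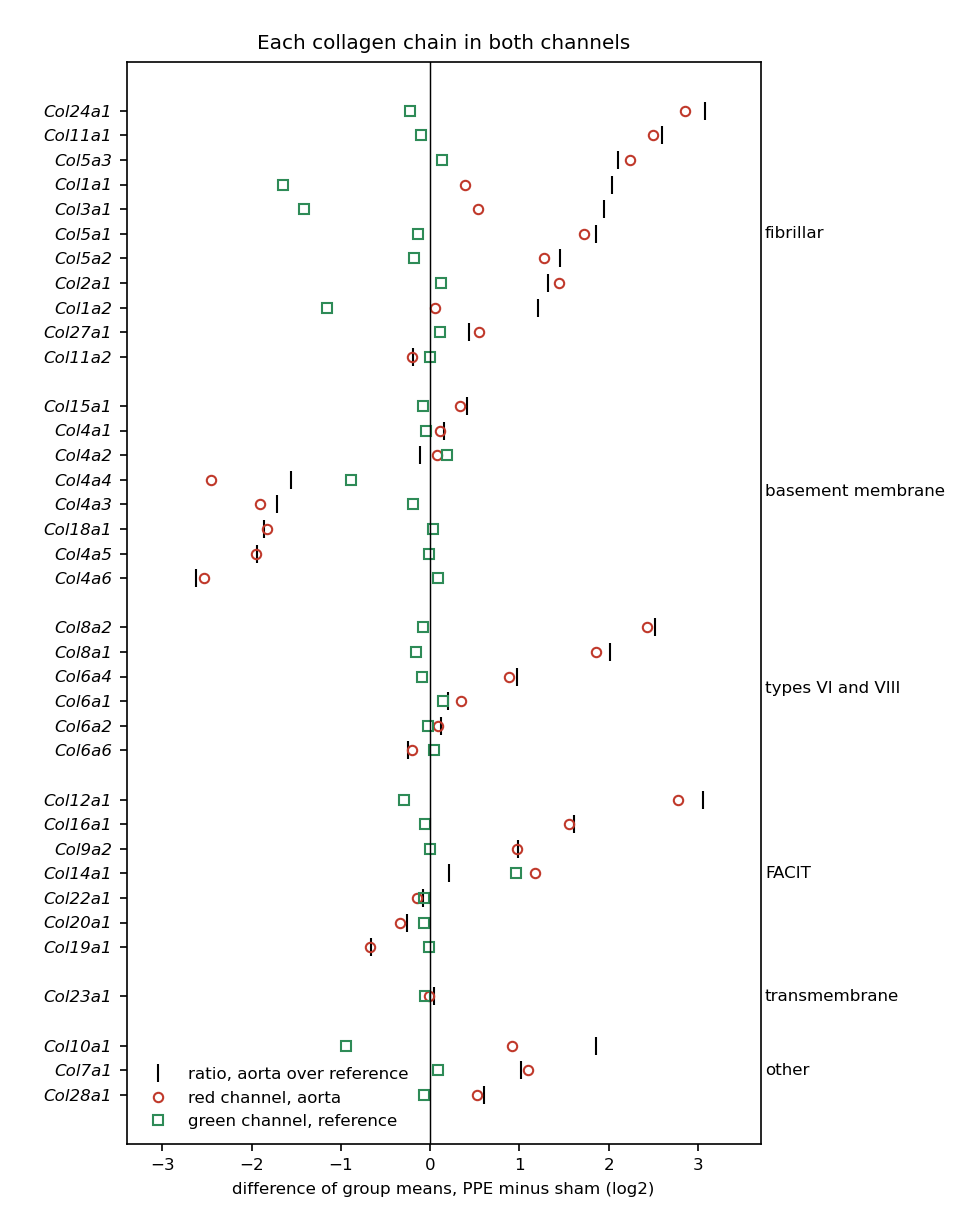
Difference of group means, PPE minus sham, on the log2 scale for the 36 collagen chains, in the ratio (black ticks), in the red channel with aortic RNA (circles) and in the green channel with reference RNA (squares). For most chains the green square lies near 0 and the red circle near the tick, but for Col1a1, Col3a1 and Col1a2 the green square lies at -1.65, -1.42 and -1.16.

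Another 4 fibrillar chains were higher. Col5a1 and Col5a2, the chains of the common form of type V, had log2 fold changes of 1.86 and 1.46. Col1a2, the second chain of type I, had 1.21 (standard error 0.20, limma adjusted p 0.000681). Its log2 ratios ran from 2.01 to 2.69 in sham and from 2.91 to 4.05 in PPE. Col2a1, the chain of cartilage collagen, had 1.32, and was well above background on 1 sham array and on all 5 PPE arrays. The call of Col2a1 was lost without sham 4, PPE 3 or PPE 4, with a limma adjusted p of up to 0.0108. Of the 4 cartilage markers (Acan, Sox9, Matn3 and Hapln1), 0 were called, and their log2 fold changes ran from -1.15 to 0.78. The other fibrillar chains were not called. Col27a1, a minor fibrillar chain, had 0.43 (limma adjusted p 0.147), and Col11a2, the partner of Col11a1 in type XI, had -0.19 (0.594), a value of 0.01 under median centring.

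The fibrillar calls were also looked at within slides. Only slides 1 and 2 held both groups, and sham 4, sham 5 and PPE 5 were each alone on a slide. On slide 1 (sham 1, PPE 1 and PPE 2) the differences of the 9 called chains ran from 1.19 to 3.60, and on slide 2 (sham 2, sham 3, PPE 3 and PPE 4) from 1.01 to 3.06. With slide as a fixed block Col5a2 was no longer past the threshold (limma adjusted p 0.0101). Among PPE arrays, PPE 5 was the lowest for 5 of the 9 chains and PPE 4 for the other 4. Of 6 fibroblast markers, 2 were higher (Pdgfra 0.64 and Fbln1 0.84) and 0 lower, all 6 were above background on all sham arrays, and their mean log2 ratio was 3.24 to 4.03 on sham and 3.43 to 4.41 on PPE arrays. Macrophage markers were higher for 5 of 5 genes (0.41 to 0.92 on sham and 2.71 to 3.88 on PPE arrays) and neutrophil markers for 3 of 4, of which Mmp8 was above background on 0 sham arrays. Cell cycle genes were higher for 3 of 4, against 13.8% of all names tested, the background for each of these counts. The part of these cells in the fibrillar values was not tested. Marker values are ratios and hold the green channel too. S100a9, a neutrophil marker at 3.26 by the ratio, had a mean red log2 signal of 9.48 in sham and 15.90 in PPE.

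**Figure D3:**
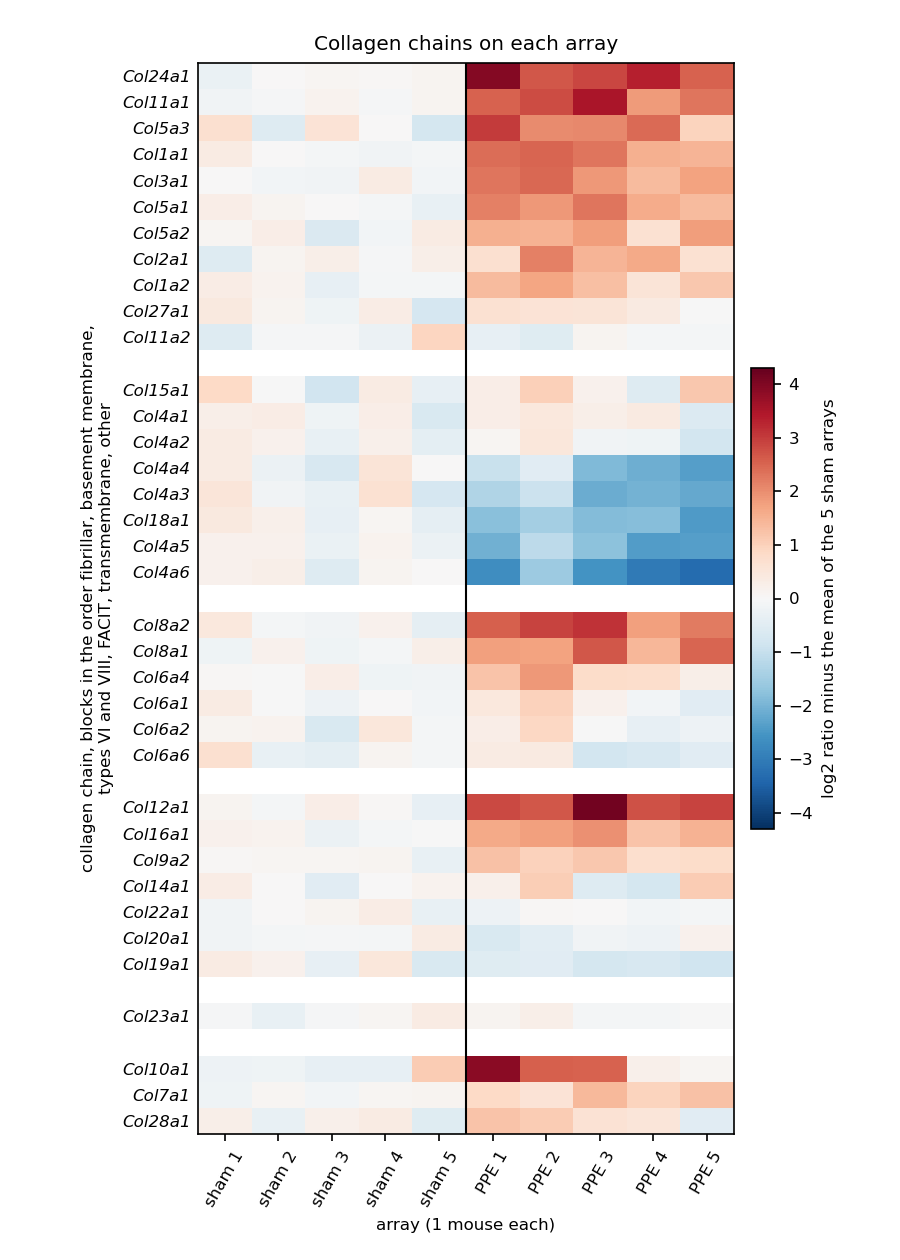
Log2 ratio of each of the 36 collagen chains on each of the 10 arrays, after subtracting the chain's mean over the 5 sham arrays (red: above that mean, blue: below it). The top block is fibrillar, where the 5 PPE arrays are red in 9 rows, and the block under it is basement membrane, where 5 rows are blue in PPE.

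The basement membrane chains went the other way, but not together. Type IV has 6 chains, which assemble in fixed trios. Col4a1 and Col4a2 form the network present in nearly all basement membranes. Col4a3, Col4a4 and Col4a5 form a network best known from the kidney glomerulus, and Col4a5 and Col4a6 form a network found around smooth muscle. In PPE aorta, the 4 chains of the restricted networks were lower, while Col4a1 and Col4a2 were not called.

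By its brightest probe, Col4a6 had the largest decrease of the 36 collagen chains tested. Its log2 ratios were 3.59, 3.64, 2.86, 3.51 and 3.41 on sham arrays and 0.74, 1.84, 0.84, 0.36 and 0.09 on PPE arrays. Every PPE array was below every sham array, and PPE 2 was the highest of the PPE arrays. Col4a6 was 6.17-fold lower in PPE (log2 fold change -2.63, standard error 0.29, limma adjusted p 3.59e-05). A second probe of Col4a6 (chromosome X, 137601433 to 137601491, mm9, against 137599990 to 137600049), gave -0.68 and was past the same threshold over all probes (limma adjusted p 0.00694). The direction was the same in both probes and the size was not. With the mean of both probes Col4a6 was at -1.65, a smaller decrease than those of Col4a5 (-1.94) and Col4a3 (-1.72).

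Col4a5 had log2 ratios of 2.52, 2.51, 2.05, 2.48 and 2.07 in sham, and of 0.27, 1.20, 0.55, -0.08 and -0.03 in PPE. PPE 2 was again the highest PPE array and still below every sham array. The log2 fold change of Col4a5 was -1.94 (standard error 0.23, limma adjusted p 6.35e-05). Col4a3 had log2 ratios of 2.90, 2.21, 2.06, 3.01 and 1.66 in sham and of 1.06, 1.45, 0.24, 0.34 and 0.17 in PPE, so the groups came close without overlap. Its probe was well above background on 5 sham arrays and 2 PPE arrays, and the log2 fold change was -1.72 (standard error 0.31, limma adjusted p 0.00129). In the deposited LogRatio Col4a3 was not past the threshold (-1.69, limma adjusted p 0.0813).

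Col4a4 had log2 ratios of 3.03, 2.43, 2.002, 3.25 and 2.69 in sham and of 1.73, 2.21, 0.78, 0.58 and 0.30 in PPE. These groups overlapped, since PPE 2 was above sham 3. The log2 fold change of Col4a4 was -1.56 (standard error 0.37, limma adjusted p 0.00589), and a second tested probe gave -1.26. The call of Col4a4 was lost when any of sham 1, 2, 4 and 5 or PPE 3, 4 and 5 was left out, with a limma adjusted p of up to 0.0184. It was also lost without sham 5 and PPE 5 together (0.0213) and with no filter on dim probes (0.0115). Kidney lies next to the segment that was taken, and some kidney genes were looked up after these values had been seen. Nphs1 and Umod were above background on 0 arrays, Slc12a1 on 2 and Slc34a1 on 4, and Aqp2, above it on all 10, had a log2 fold change of 0.07 and was not called.

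Col4a1 and Col4a2 did not pass the test. The log2 ratio of Col4a1 was 2.49, 2.55, 2.06, 2.51 and 1.57 in sham, and 2.52, 2.68, 2.49, 2.63 and 1.65 in PPE. The groups lay over each other, with the lowest value of each on replicate 5. The log2 fold change was 0.15 for Col4a1 (standard error 0.24, limma adjusted p 0.672) and -0.11 for Col4a2 (standard error 0.23, limma adjusted p 0.759). Under median centring these were 0.82 and 0.57, neither called, so the sign of Col4a2 depends on the scaling.

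Col18a1 encodes type XVIII, whose end fragment is endostatin, an inhibitor of vessel growth. Its log2 ratios were 4.33, 4.10, 3.55, 3.999 and 3.51 in sham and 2.11, 2.45, 2.05, 2.08 and 1.48 in PPE. The highest PPE array was more than 1 log2 unit below the lowest sham array. Col18a1 was 3.64-fold lower in PPE (log2 fold change -1.86, standard error 0.20, limma adjusted p 3.59e-05), and its second probe gave -1.41. Col15a1, the related chain of type XV, was not called (log2 fold change 0.41, limma adjusted p 0.431), and its 3 probes lay between 0.37 and 0.43.

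**Figure D4:**
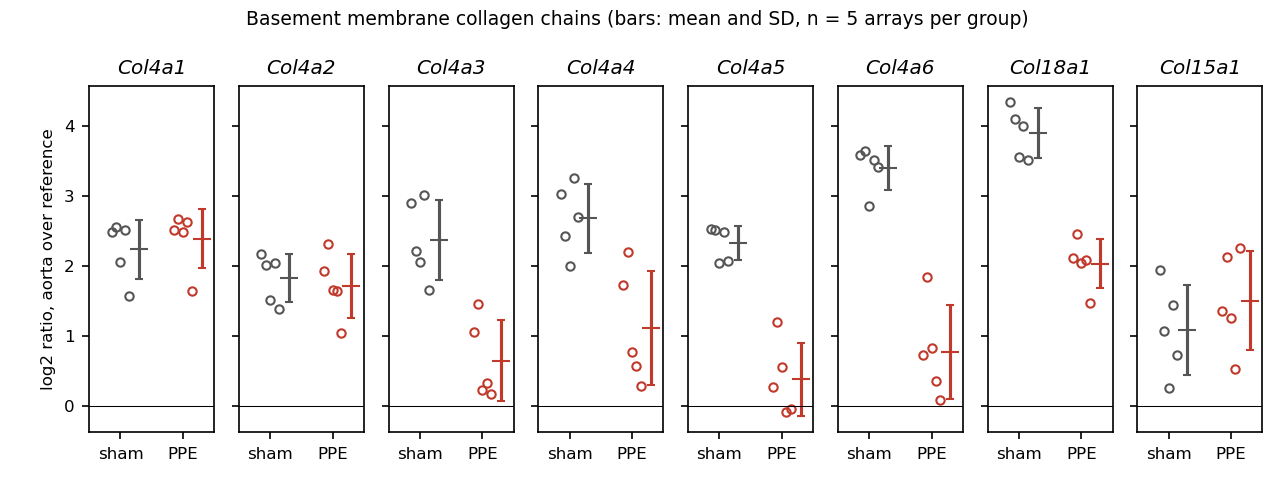
Log2 ratio of aorta over reference on each array for the 8 basement membrane chains, sham (grey) and PPE (red), with the mean and SD of the 5 arrays of each group. Col4a3, Col4a5, Col4a6 and Col18a1 have separate groups, Col4a4 overlaps by 1 PPE array, and Col4a1, Col4a2 and Col15a1 overlap throughout.

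Most smooth muscle markers were lower as well. Of 6 genes, 5 were lower (Acta2, Tagln, Cnn1, Smtn and Lmod1) and 0 higher, against 9.96% and 13.8% of all names tested. All 6 were above background on all sham arrays. The remaining gene, Myh11, had -0.74 and was not called (limma adjusted p 0.204). Its mean red log2 signal, normalized between arrays, was 15.05 in sham and 11.20 in PPE. Cnn1, at -1.74 by the ratio, had 17.45 and 14.14 in red. Marker values are ratios too, so they hold the green channel as well. The mean log2 ratio of the 6 markers was 3.77 to 4.66 on sham and 1.98 to 3.22 on PPE arrays. The highest PPE value, 3.22, was that of PPE 2, and PPE 2 was also the highest PPE array for all 5 lower chains. PPE 2 also had the highest PPE mean for the fibroblast (4.41), endothelial (3.45), adipocyte (5.50), skeletal muscle (4.23) and Schwann cell (2.61) markers. It did not for the macrophage, neutrophil, cartilage and cell cycle markers. The match with PPE 2 is thus not particular to smooth muscle. Without PPE 2 the log2 fold change of Col4a6 was the largest of the values with 1 array left out, -2.89, and the 5 chains were all called. Endothelial markers were called for 0 of 5 genes (2.38 to 3.36 on sham and 2.46 to 3.45 on PPE arrays). Adipocyte and skeletal muscle markers were called for 0 of 5 genes each. Of 4 Schwann cell markers, 1 was higher (Mbp, 1.11) and 0 lower. The part of smooth muscle in the values of the 5 chains was not tested. On slide 1 the differences of the 5 chains ran from -2.30 to -1.06, and on slide 2 from -2.65 to -1.54.

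Types VI and VIII differed from each other. Type VIII is made by smooth muscle and endothelial cells and is known to rise in injured arteries. Col8a2 had log2 ratios of 1.36, 0.82, 0.77, 1.09 and 0.54 in sham and of 3.50, 3.82, 4.02, 2.66 and 3.16 in PPE. Col8a1 had -1.25, -0.86, -1.22, -1.13 and -0.82 in sham and 0.71, 0.68, 1.62, 0.37 and 1.44 in PPE. In both chains every PPE array was above every sham array. The log2 fold change was 2.52 for Col8a2 (standard error 0.25, limma adjusted p 1.63e-05) and 2.02 for Col8a1 (standard error 0.23, limma adjusted p 4.74e-05). A second probe of Col8a2 gave 0.51 and was not past the threshold (limma adjusted p 0.0405), and the mean of both probes gave 1.51, still called.

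In type VI, 3 of the 4 chains tested were not called. Col6a1 and Col6a2, the chains of its core, had log2 fold changes of 0.20 (limma adjusted p 0.564) and 0.12 (0.768), and Col6a6 had -0.24 (0.558). Col6a3, the third chain of the core, has no probe under that symbol. A probe named by a transcript, which the files describe as type VI alpha 3, had 0.42 and was not called (limma adjusted p 0.129). A like probe described as type VI alpha 2 had -0.28, against 0.12 for Col6a2, and was not called (0.249). Col6a4 was the exception, at a log2 fold change of 0.98 (standard error 0.25, limma adjusted p 0.00994). Its log2 ratios were 0.04, -0.05, 0.26, -0.20 and -0.17 in sham and 1.21, 1.84, 0.75, 0.74 and 0.23 in PPE, so the groups overlapped at PPE 5 and sham 3. The Col6a4 probe was above background on 2 sham and 4 PPE arrays, and its call was lost when any sham array or PPE 1, 3 or 4 was left out (limma adjusted p up to 0.0276). The call of Col6a4 was also lost with slide as a fixed block (0.0124), with the mean of tested probes (0.0103), with no filter on dim probes (0.017) and in the red channel alone (0.0131).

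Among FACIT collagens, Col12a1 stood out. It encodes type XII, which links fibrils under tension. Its log2 ratios were -0.76, -0.96, -0.59, -0.82 and -1.23 in sham and 1.97, 1.78, 3.29, 1.87 and 2.03 in PPE. PPE 3 was more than 1 log2 unit above the other PPE arrays, which lay close together and above all sham arrays. The fold was 8.34 (log2 fold change 3.06, standard error 0.26, limma adjusted p 6.45e-06), and without PPE 3 the log2 fold change was 2.78. Col16a1, the chain of type XVI, had -0.55, -0.60, -0.99, -0.82 and -0.77 in sham and 0.88, 1.03, 1.20, 0.47 and 0.76 in PPE. All PPE values were above 0 and all sham values below it, with a log2 fold change of 1.61 (standard error 0.15, limma adjusted p 9.60e-06). Of its other tested probes 1 gave 1.79 and 1 gave 0.23, the latter not called.

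Col9a2, a chain of the cartilage collagen IX, had log2 ratios of 0.41, 0.45, 0.43, 0.48 and 0.02 in sham and of 1.603, 1.35, 1.53, 1.07 and 1.16 in PPE. The groups were separate, at a log2 fold change of 0.98 (standard error 0.14, limma adjusted p 0.000196). Its partners Col9a1 and Col9a3 were above background on 4 and 0 arrays and were not tested. Col14a1, a fibril-surface relative of Col12a1, had 0.21 (limma adjusted p 0.695) and spread widely in PPE, from 3.89 to 5.76. Col14a1 was called in the red channel alone (1.18, limma adjusted p 0.000171). Col22a1 (-0.08) and Col20a1 (-0.26) were not called, and Col20a1 was at 0.21 under median centring. Col19a1 had -0.66 (limma adjusted p 0.0287), not called here and past the threshold with slide as a fixed block (-0.71, limma adjusted p 0.00771) and without sham 5 (-0.82, limma adjusted p 0.00383).

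Outside these classes, Col7a1, the chain of anchoring fibrils, had log2 ratios of -1.85, -1.58, -1.77, -1.58 and -1.57 in sham and of -0.81, -1.09, -0.27, -0.71 and -0.41 in PPE. The groups did not overlap, at a log2 fold change of 1.01 (standard error 0.15, limma adjusted p 0.000369). Col10a1, the chain of hypertrophic cartilage, divided the PPE arrays. It was 4.26, 2.93 and 2.92 on PPE 1 to 3 but 0.60 and 0.45 on PPE 4 and PPE 5, and 0.17, 0.20, 0.01, 0.02 and 1.48 on sham arrays. The log2 fold change was 1.86, with a standard error of 0.67, and was not called (limma adjusted p 0.04995). Col10a1 was called in the deposited LogRatio (4.51, limma adjusted p 0.00169) and without sham 5 and PPE 5 (2.58, limma adjusted p 0.0084). Col28a1, related to type VI, had 0.60 and was not called (limma adjusted p 0.157), but passed the threshold with slide as a fixed block (0.75, limma adjusted p 0.00773) and without PPE 5 (0.87, limma adjusted p 0.00918). Of the transmembrane chains, Col13a1, Col17a1 and Col25a1 were above background on 0, 2 and 3 arrays and were not tested.

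Chains that build the same molecule, or are close relatives, were then set against each other on the same array. The difference of 2 log2 ratios on 1 array does not move with a shift of the whole array. Of 15 pairs, chosen with earlier results of these data known, 12 had both chains tested. With 5 against 5 arrays there are 252 relabellings, and the smallest exact two-sided p is 0.00794. The ratio differed between PPE and sham in 6 of the 12 pairs, each at that smallest p, or 0.0159 after Benjamini-Hochberg adjustment over the pairs. That p is reached only when the groups do not overlap, so their separation in all 6 pairs is the same result. In Col11a1 over Col11a2, Col4a5 over Col4a1, Col18a1 over Col15a1 and Col12a1 over Col14a1, a called chain was set against a chain not called. These pairs largely restate the calls of the chains and are not separate support for them.

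Within type I, the ratio of Col1a1 rose more than that of Col1a2. The log2 of Col1a1 over Col1a2 went from -0.38 ± 0.16 in sham to 0.45 ± 0.32 in PPE (mean ± SD over the 5 arrays of each group, exact permutation p 0.00794), a difference of 0.83. Slide 1 alone gave 0.93 and slide 2 gave 0.94. In the red channel alone the difference was 0.34 and not past the threshold (adjusted exact permutation p 0.413). Within type XI, Col11a1 over Col11a2 moved by 2.78, from 0.09 ± 0.46 to 2.87 ± 0.63 (SD). The other pairs of fibrillar chains were not called. Col3a1 over Col1a1 differed by -0.09 (exact permutation p 0.627), and Col5a1 over Col5a2 by 0.41 (exact permutation p 0.23).

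In type IV, Col4a5 over Col4a1 fell by 2.10, from 0.09 ± 0.23 to -2.01 ± 0.48 (mean ± SD over the 5 arrays of each group, exact permutation p 0.00794). The 5 sham values of this ratio lay between -0.04 and 0.50 and the PPE values between -2.70 and -1.47. Col4a5 over Col4a6 rose by 0.68, since Col4a6 was the more reduced of the pair. This call rested on the choice of probe and of channel. With the mean of both Col4a6 probes the difference was -0.29 (adjusted exact permutation p 0.0952), and in the red channel alone it was 0.58 (also 0.0952). Col4a3 over Col4a4 differed by -0.15 (exact permutation p 0.5), and in the red channel alone by 0.55 (adjusted exact permutation p 0.0381). Col4a1 over Col4a2 differed by 0.26 (exact permutation p 0.0794, adjusted 0.136), and without PPE 2 by 0.34 (adjusted exact permutation p 0.0136).

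Among the remaining pairs, Col18a1 over Col15a1 fell by 2.28, from 2.80 ± 0.35 to 0.53 ± 0.85 (SD), and was the only one of the 6 calls lost under median centring (-1.38, adjusted exact permutation p 0.0794). Col12a1 over Col14a1 rose by 2.85, from -5.52 ± 0.49 to -2.68 ± 1.30 (SD). Its PPE values ran from -3.94 on PPE 2 to -0.79 on PPE 3. In the red channel alone the rise of Col12a1 over Col14a1 was smaller, 1.60 (adjusted exact permutation p 0.0238). Col6a1 over Col6a2 differed by 0.08 (exact permutation p 0.651) and Col8a1 over Col8a2 by -0.50 (exact permutation p 0.159).

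**Figure D5:**
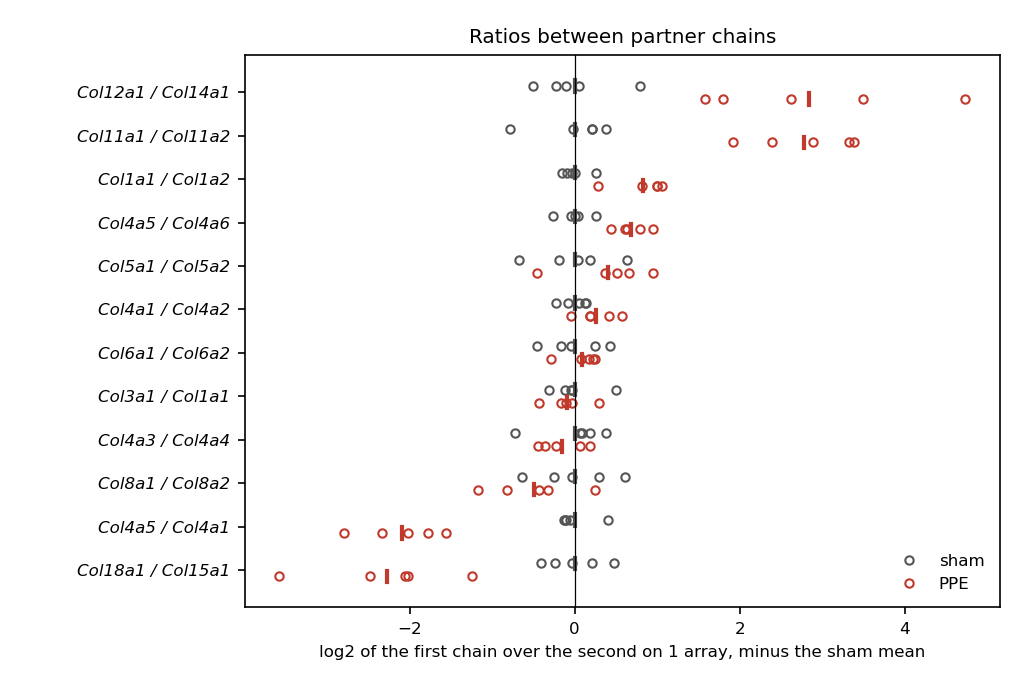
Log2 ratio between 2 chains on the same array, minus the mean of that ratio over the 5 sham arrays, for the 12 pairs tested (circles: arrays, ticks: group means, grey: sham, red: PPE). In 6 pairs the groups are separate, 4 with PPE to the right and 2 with PPE to the left.

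The genes that handle collagen were counted from a list of 44 on the array, of which 41 were tested. Of these, 19 were higher and 4 lower, with a median log2 fold change of 0.50, against 13.8% and 9.96% of all names tested, which is the background for each count that follows. Among enzymes and chaperones that modify and fold the chains, 7 of 16 were higher and 1 was lower. They included P4ha3 (1.82) and Plod2 (1.32), which hydroxylate proline and lysine, and the collagen chaperone gene Serpinh1 (1.09). Leprel1, which encodes a prolyl 3-hydroxylase, was the lower one (-1.07). Of 6 genes tested for removing propeptides, 2 were higher and 1 was lower. Bmp1 (0.93) and Tll1 (1.55), which encode C-propeptide proteases, were higher, and Pcolce2, an enhancer of that step, was lower (-2.15). Of 5 cross-linking genes 2 were higher, Lox (2.08) and Loxl2 (1.54). Genes for enzymes that cleave collagen were higher for 5 of 6, with Mmp14 at 3.02. Of these, Mmp13 and Mmp8 were above background on 0 sham and on 5 PPE arrays, so they passed the filter through PPE alone and their folds are bounds. Mmp13 was at least 16.7-fold higher and Mmp8 at least 4.07-fold higher in PPE. Receptors were divided. Lair1 (2.71), Itga11 (2.20) and Mrc2 (1.09) were higher, and Ddr2 (-0.97) and Itga10 (-0.99) were lower. Cathepsin K (Ctsk), the remaining gene of the cleaving list, had 0.50 and was not called (limma adjusted p 0.168).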

How the data were processed

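The authors labelled 500 ng of aortic RNA per mouse with Cy5 and a universal reference with Cy3, hybridized 2-colour Agilent arrays with no dye swap, and extracted spots with Feature Extraction 10.7.3.1. Some arrays had been left out by the authors for poor hybridization. The authors also applied hierarchical clustering and principal components analysis to identify treatment subgroups and to remove outliers. The spread within groups and the separation between them are those of the arrays kept after this step. The deposited files give spot intensity (linear) and a LogRatio, which is log10, and the authors' series matrix holds log2 ratios, equal to the log2 of the processed red over green signal within 0.0001 on 100% of spots. No fold changes or p-values of the authors were used.

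In R 4.3.3 with limma 3.58.1, mean signals were background-corrected by normexp (offset 50, with the median local background) and normalized by loess within arrays. The offset draws dim probes towards 0. Control and outlier spots (176 to 331 per array) were left out. A probe was tested if red was well above background on at least 5 arrays, and the brightest tested probe stood for its gene. Of the 36 chains, 10 had several tested probes, and in 3 these differed by over 1. Groups and replicate numbers come from the labels. PPE and sham were compared with lmFit and eBayes, unpaired, two-sided, with Benjamini-Hochberg adjustment over 22520 names and a threshold of 0.01, after the study's false discovery rate. Adjusted p-values are those of limma unless named. The study's SAM was written anew with 100 relabellings. Pair ratios were tested by exact permutation, at an adjusted p under 0.05. Probe positions are those of the files (mm9), with no annotation of exons or UTRs used.

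The members, classes, pairs and lists were chosen with earlier results of these data known. In each class up to 5 higher and 5 lower chains are given with all arrays. The code was tested on simulated data. Same-numbered arrays correlated in their deviations at -0.30 to 0.52, over 0.1 in 3 of 5 pairs. So few pairs cannot settle whether numbers pair samples. The labels give no pairing, and the test was kept unpaired. Alternatives covered the background correction, scaling, filter, probe choice, slide, scan day, replicate number, test and each array left out. Leaving out sham 5 and PPE 5 together, the red channel alone (after Aquantile scaling between arrays), and the kidney genes, were chosen after seeing the data. A further kidney gene is not reported here.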

Additional observations from a re-analysis of the deposited data

Results flagged for a closer look

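In 72 groups of 5 arrays (36 chains, sham and PPE), 7 had an array whose gap to its neighbour was over 0.71 of the group's range (Dixon's test), which is 9.72% where chance gives about 5%. In PPE these were Col12a1 on PPE 3, with a log2 ratio of 3.29 (next 2.03), Col5a2 on PPE 4 at 1.46 (next 2.31) and Col4a1 on PPE 5 at 1.65 (next 2.49). In sham they were Col10a1 on sham 5 at 1.48 (next 0.20), Col9a2 on sham 5 at 0.0232 (next 0.41), Col20a1 on sham 5 at -0.52 (next -0.91) and Col24a1 on sham 1 at -0.40 (next -0.08), the last in a group where the probe was not above background on any array. Of the 7, 4 lay on sham 5 or PPE 5, which had the fewest spots above background in their groups.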

How the results depend on the processing

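Of the 21 called chains, 18 kept their call whichever single array was left out, and 0 chains reversed a call. With 1 array left out, the count of higher chains was 14 to 17 and of lower chains 4 to 5, and without both sham 5 and PPE 5 it was 17 and 5. Median centring changed most. It gave 4 higher and 0 lower chains, of 408 and 8 names in all, and medians of 2.26 for fibrillar, -0.84 for basement membrane, 0.78 for FACIT, 1.50 for other, 0.27 for transmembrane and 0.95 for types VI and VIII chains. The chains still called were Col12a1, Col24a1, Col11a1 and Col8a1, and the cause was not tested. Requiring signal on all 10 arrays left 24 chains. Of these, 10 were higher, of 2424 names in all. The median for types VI and VIII was 1.11, since fewer chains were tested. The median of other chains was 1.57 with the LogRatio and 1.54 with series matrix values, and that of types VI and VIII was 1.08 in both, for causes not tested. In the red channel alone 13 chains were higher and 5 lower, of 2499 and 2097 names in all, with a median of 1.27 for fibrillar and 0.98 for FACIT chains. The calls of Col1a1, Col1a2, Col3a1 and Col6a4 were lost there and Col14a1 was called. The ratio of Col4a3 over Col4a4, at -0.15 and not called in the main setting, was called at 0.55 there. The green signal differed by -0.89 for Col4a4 and by -0.19 for Col4a3, and the cause was not tested. The ratio of Col4a5 over Col4a6 changed sign to -0.29, not called, with the mean of probes, which includes the weaker Col4a6 probe. The pair count was 5 to 6 over the other alternatives and 6 to 7 with 1 array left out. With the replicate number as a block, 16 chains were higher and 5 lower, and it changed no call of a chain. SAM called 16 chains higher and over all names 4671 higher and 3087 lower, and Aquantile leaves ratios as they are. Medians with 1 array left out ran from 1.75 to 1.99 (fibrillar), -1.88 to -1.48 (basement membrane), 0.38 to 0.77 (types VI and VIII) and -0.01 to 0.46 (FACIT). For chains above background on few sham arrays, signal over background limits the fold.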
